A study of Mus musculus with 6 samples.

Results

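Interferon beta, encoded by Ifnb1, is the type I interferon that macrophages release early after they sense viral or bacterial products. The peaks described here are all those that the deposited ATF3 ChIP-seq peak lists assign to Ifnb1 as the nearest gene. They were thus chosen by peak calling, which rests on WT tags or on WT against KO tags, and by their distance to the transcriptional start site (TSS). For each condition a standard list holds peaks called on the WT library alone. A KOIN (knockout implemented normalization) list holds peaks called on WT with the KO library as the control, less those under 2-fold. Among 16759 peaks in 6 lists, 6 carried this gene name, 1 in each list, and all 6 overlapped at 1 site of 7464. The site had a standard and a KOIN peak in unstimulated macrophages, after HDL and after HDL + CpG, and its WT library held more tags than its KO library in each condition, by 3.98-fold to 9.08-fold.

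ATF3 ChIP-seq was performed on bone marrow-derived macrophages (BMDMs), cultured from marrow in M-CSF (40 ng/ml) over 6 days. The marrow came from WT C57BL/6 mice (Atf3 +/+) aged 6 to 8 weeks or from ATF3-deficient (KO, Atf3 -/-) mice matched for age and sex. Cells of each genotype received medium alone (unstimulated), HDL at 2 mg/ml over 6 h, or the same HDL treatment and then CpG at 100 nM over 4 h (HDL + CpG). HDL is the lipoprotein that carries cholesterol away from cells, and CpG DNA is a ligand of Toll-like receptor 9. Per the labels 3 biological replicates were made, which the authors concatenated, so each of the 6 groups is 1 pooled library and no spread between mice or cultures can be given. Condition and library therefore cannot be told apart, and no test was run. The WT and KO libraries held 37137377 and 75534584 reads in unstimulated cells, 37930363 and 66061648 with HDL, and 49467421 and 47504605 with HDL + CpG. The KO allele is not described further in the sources used here, and the peak lists hold no measure of Atf3 RNA, ATF3 protein or macrophage marker expression with which to check the labels.

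Transcription of Ifnb1 is known to be switched on by receptors of nucleic acids and lipopolysaccharide, whose signals end in interferon regulatory factors (IRFs), NF-κB and ATF/Jun dimers at a compact enhancer next to the start site. The secreted protein acts on the type I interferon receptor and turns on interferon-stimulated genes. ATF3 is a basic leucine zipper factor, induced by stress and by Toll-like receptor ligands, with AP-1 and CRE words as its known targets, and it is described as a negative regulator of inflammatory genes in macrophages.

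All 6 peaks lay upstream of Ifnb1 on chromosome 4 and were annotated as intergenic (mm9 coordinates). Ifnb1 itself covers 88167929 to 88168698 on the minus strand in 1 exon, so that higher coordinates are upstream. In unstimulated cells the peak spanned 88182925 to 88183823 (899 bp) with its centre at a signed distance of -14676 bp from the TSS. With HDL it spanned 88183105 to 88183929 (825 bp, -14819 bp), and with HDL + CpG 88183062 to 88183979 (918 bp, -14822 bp). Within a condition the standard and the KOIN peak had the same start and end, and hence the same tags. The 6 peaks shared 719 bp (88183105 to 88183823). The 300 bases at the middle of this shared stretch, chr4:88183315-88183614 on the plus strand, are shown because they hold the centres of the 3 peaks, with capitals marking the 2 words described below.

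Shared stretch, middle: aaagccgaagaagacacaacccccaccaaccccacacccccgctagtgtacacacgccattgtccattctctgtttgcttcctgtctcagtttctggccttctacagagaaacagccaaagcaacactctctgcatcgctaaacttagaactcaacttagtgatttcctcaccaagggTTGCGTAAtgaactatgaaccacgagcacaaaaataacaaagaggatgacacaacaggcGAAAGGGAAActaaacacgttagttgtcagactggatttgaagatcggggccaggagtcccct

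A further pair of short stretches shows the remaining words, again on the plus strand with the word in capitals. The first, chr4:88182920-88182956, lies at the edge of the unstimulated peak nearer to Ifnb1, and the second, chr4:88183711-88183750, inside the shared stretch.

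Edge of the unstimulated peak: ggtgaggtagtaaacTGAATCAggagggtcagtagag
Farther side of the shared stretch: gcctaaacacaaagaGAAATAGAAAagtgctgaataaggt

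The shift of the peak was small against its length. The centre in unstimulated cells was 143 bp nearer to Ifnb1 than with HDL, and the centres with HDL and with HDL + CpG were 3 bp apart. No annotated gene overlapped the site. The next gene on the other side was Gm12597, a protein-coding gene with its own start site 20.6 to 20.8 kb from the peak centres. Ifnb1 was thus the nearer gene in each list. Gm12597 lies between Ifnb1 and Ifna14, and whether it is itself an interferon gene was not examined. The annotation gives the nearest start site and does not show which gene, if any, the site acts on.

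**Figure D1:**
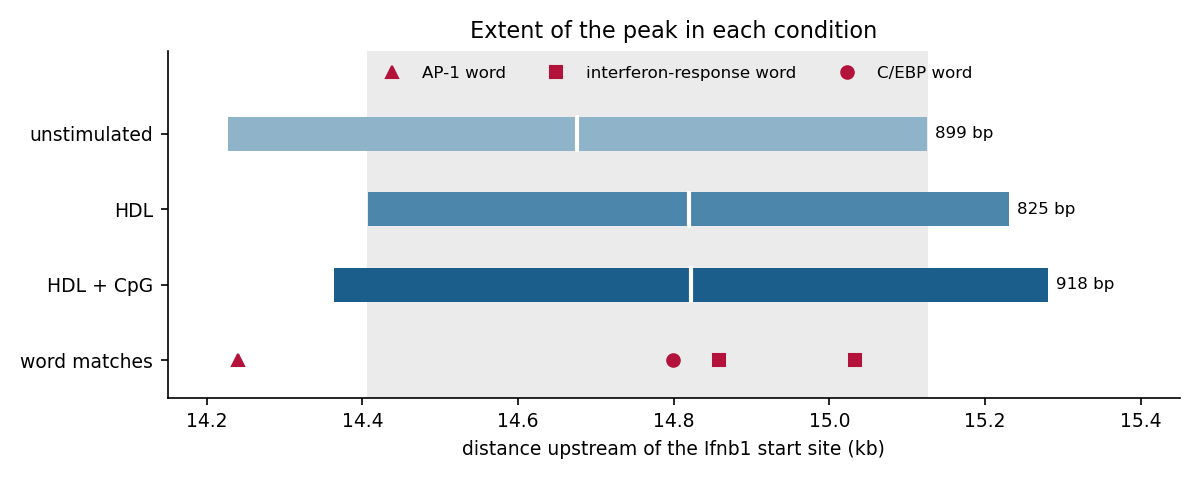
Extent of the peak in each condition (bars, with the centre as a white line) against the distance upstream of the Ifnb1 start site in kb, and the positions of the sequence words (symbols). The grey band is the stretch shared by all peaks (719 bp), and the unstimulated bar begins 180 bp nearer to Ifnb1 than the HDL bar.

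Tags are reads in a peak scaled by the authors to a library of 10000000 reads. In the 3 WT libraries the site held 18.04 tags unstimulated (95% exact Poisson interval 13.98 to 22.9, 67 reads), 21.1 with HDL (16.7 to 26.2, 80 reads) and 16.4 with HDL + CpG (13.0 to 20.4, 81 reads). In the 3 KO libraries it held 1.99 tags (1.11 to 3.28, 15 reads), 5.30 (3.69 to 7.37, 35 reads) and 2.95 (1.61 to 4.94, 14 reads) in the same order. The 3 WT intervals overlapped each other, and the lowest of them began above the highest KO interval. Among the KO libraries the HDL value was the highest, and its interval did not overlap that of the unstimulated KO library. These intervals cover counting error only, and reads without molecular identifiers need not be independent molecules.

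**Figure D2:**
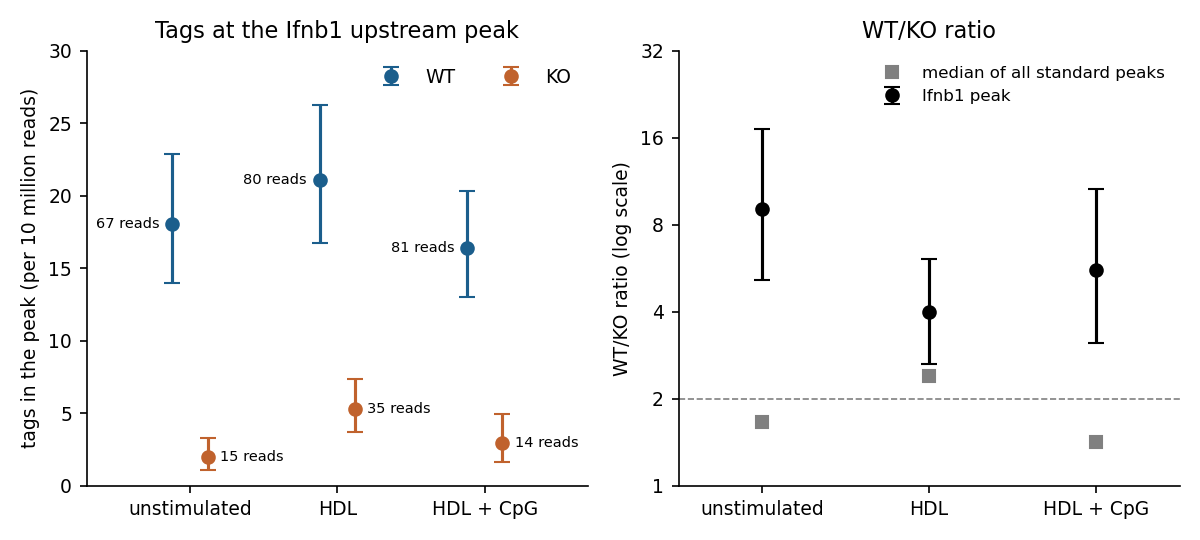
Left, tags in the Ifnb1 upstream peak (per 10000000 reads) in each library with exact Poisson 95% intervals and read numbers. Right, WT/KO ratio on a log scale with exact 95% intervals, beside the median of all standard peaks of the condition (grey squares) and the fold of 2 used by the authors' filter (dashed line). WT values lie between 16.4 and 21.1 tags, and the ratio is lowest with HDL.

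The WT/KO ratio was 9.08 in unstimulated cells (exact conditional 95% interval 5.14 to 17.1), 3.98 with HDL (2.64 to 6.10) and 5.56 with HDL + CpG (3.13 to 10.6). All 3 intervals lay above the 2-fold difference that the KOIN filter asks for. Since the KOIN peaks were selected on this very contrast, the ratios describe the peaks and support nothing further. The value with HDL depended on the scaling, and was 2.34 when the median standard peak with no KOIN peak was set to a ratio of 1. The excess of WT over KO tags was 16.1 unstimulated, 15.8 with HDL and 13.4 with HDL + CpG, and so differed less between conditions than the ratio did. The ratio with HDL was 0.438 times the unstimulated one (0.205 to 0.910), while the median over 1530 sites with a standard peak in all 3 conditions was 1.27. For HDL + CpG against HDL the quotient of ratios was 1.396 (0.669 to 3.02), and against unstimulated cells it was 0.612 (0.254 to 1.47), both with intervals that include 1. A quotient whose interval includes 1 does not show that the ratios were alike.

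Between conditions the WT tags at the site differed about as much as at the median site. With HDL the WT value was 1.17 times the unstimulated one (0.834 to 1.64), against a median of 1.13 over the 1530 sites. HDL + CpG over HDL gave 0.776 (0.563 to 1.07), against a median of 0.814. HDL + CpG over unstimulated gave 0.908 (0.649 to 1.27), against a median of 0.905. The site thus stood near the middle of all sites in each of these WT comparisons, with 54.6%, 45.1% and 50.3% of sites below it.

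The KO tags at the site stood toward the edge of all sites when HDL was compared. The KO value with HDL was 2.67 times the unstimulated KO value (1.42 to 5.26), whereas the median site had 0.869 times as many, and 8 of the 1530 sites had a larger quotient than Ifnb1. HDL + CpG over HDL gave 0.556 in KO (0.276 to 1.06), against a median of 1.44, and 3.66% of sites lay below it. HDL + CpG over unstimulated gave 1.48 (0.664 to 3.30), against a median of 1.27. The unstimulated KO value was low for its list as well, since 2.16% of 2779 standard peaks had fewer KO tags, compared with 55.9% of 5319 peaks after HDL and 11.2% of 3790 after HDL + CpG. The quotients share libraries, rest on 14 to 35 reads, and what the KO tags at this site stand for was not tested. The median unstimulated standard peak held 6.88 KO tags, against 1.99 at this site. Quotients of few reads scatter more, and the standing among sites was not matched for read number. The KO library had 2.03 times the reads of its WT partner in unstimulated cells, 1.74 times with HDL and 0.960 times with HDL + CpG. In bulk chromatin, signal in more cells and more signal per cell cannot be told apart.

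By WT tags the rank of the peak in the standard lists was 708 of 2779 unstimulated, 718 of 5319 after HDL and 817 of 3790 after HDL + CpG. Its tags were above the medians of 11.6, 11.3 and 10.7 WT tags. By WT/KO it stood at rank 5, 581 and 109, whereas the median WT/KO of the lists was 1.66, 2.41 and 1.42. Rank by ratio was therefore much higher than rank by WT tags in unstimulated and HDL + CpG cells, and the lists differ in their own ratios. Of all standard peaks, 31.3% unstimulated, 66.6% after HDL and 34.6% after HDL + CpG had a WT/KO of at least 2. The shares overlapped by a KOIN peak were 20.7%, 54.9% and 29.7% in the same order.

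**Figure D3:**
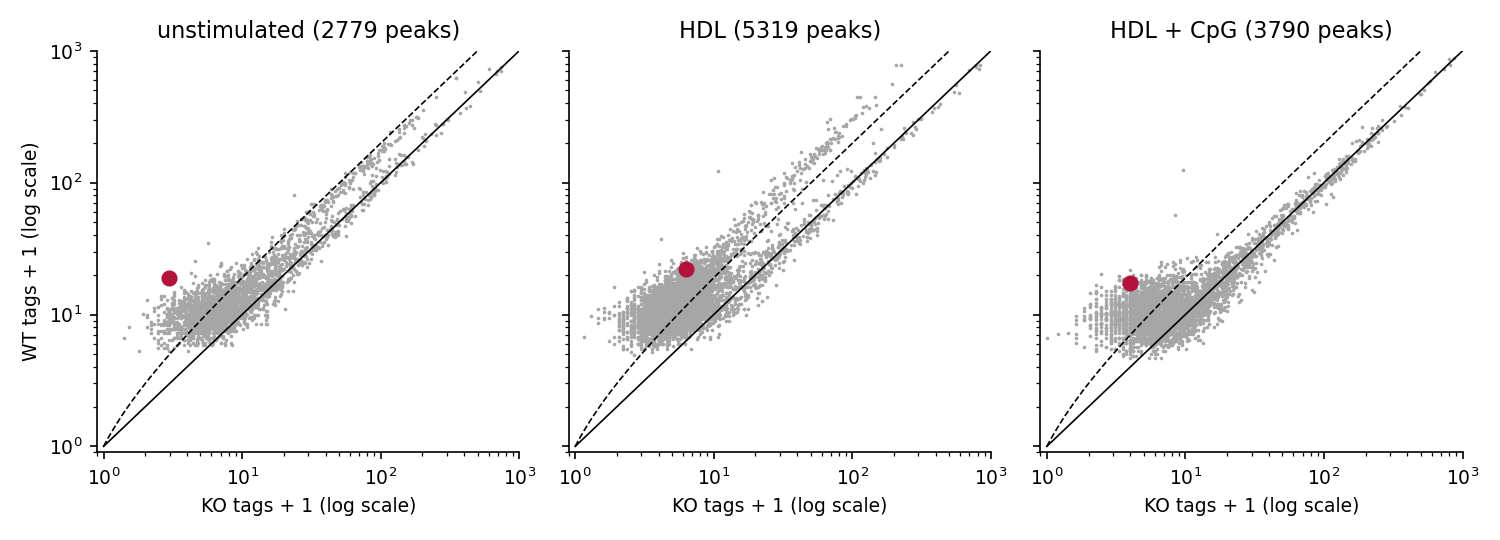
WT against KO tags (plus 1, log scales) of every standard peak (grey) in the 3 conditions, with the Ifnb1 peak in red, the line of equal tags (solid) and the 2-fold line (dashed). A total of 26 peaks with values above the axis ends are left out of the panels. The Ifnb1 peak lies above the dashed line in each panel, at rank 5 by WT/KO in unstimulated cells and rank 581 with HDL.

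A KOIN peak in all 3 conditions was uncommon among sites. Of 7275 sites with a standard peak in any condition, 72 (0.99%) had one, but this base includes sites called in fewer conditions. Of the 1530 sites with a standard peak in all 3 conditions, as at Ifnb1, 70 had a KOIN peak in all 3. These 70 sites, Ifnb1 among them, had a peak in all 6 lists. Within those 70 sites the Ifnb1 site had the highest WT/KO in unstimulated cells (median of the 70 sites 2.99), rank 18 with HDL (median 3.24) and rank 9 with HDL + CpG (median 3.23). By WT tags it stood at rank 8, 18 and 20 of the 70 sites. Its position was common: 63.4%, 57.1% and 59.5% of standard peaks were annotated as intergenic in unstimulated, HDL and HDL + CpG cells. A distance from the TSS at least as large was found for 75.3%, 68.6% and 70.0% of them.

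The score that MACS gave the peak also differed between conditions and callings. In the standard lists it was 88.9 unstimulated, 174 with HDL and 98.3 with HDL + CpG, against list medians of 58.8, 58.3 and 56.5. Called against the KO library, the score was 111 unstimulated and 183 with HDL, higher by 22.3 and 9.12, and with HDL + CpG it was the same. A higher score under KOIN was the less frequent outcome, found for 82 of 574 (14.3%), 478 of 2919 (16.4%) and 288 of 1127 (25.6%) KOIN peaks that had the same start and end as a standard peak in unstimulated, HDL and HDL + CpG cells. Within the KOIN lists the Ifnb1 peak stood by score at rank 3 of 595, 22 of 3044 and 56 of 1232.

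The sequence of the site was searched on both strands for words of factors known at Ifnb1 and in macrophages. These were TGANTCA (AP-1), TGACGTCA (CRE), TGATGCAA (a composite of C/EBP and ATF), GAGGAAGT (PU.1), GAAA followed by 2 free bases and GAAA again (interferon response, bound by IRFs), and GGG and CC with 5 free bases between them (NF-κB). TTNCGNAA (C/EBP) was added after the sequence had been seen. A match is a description of letters and not a binding site. The interferon-response word occurred at 2 places inside the shared stretch, as GAAAGGGAAA at 88183552 to 88183561 and as GAAATAGAAA at 88183726 to 88183735. The first of these lay 40 bp from the centre of the HDL peak, 36 bp from that of the HDL + CpG peak and 182 bp from the unstimulated centre. At least 1 such word was found in 14.6%, 13.0% and 14.5% of standard peaks in windows of the same length, and at least 2 in 1.48%, 1.56% and 1.72%. TTGCGTAA, a match of TTNCGNAA, stood at 88183493 to 88183500. It lay at -20 bp from the centre of the HDL peak, -24 bp from that of the HDL + CpG peak and 122 bp from the unstimulated centre, with negative values toward Ifnb1. This word was in 3.78%, 4.06% and 4.67% of peaks.

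The AP-1 word matched at 1 place of the site, in the unstimulated peak only. The only TGANTCA match was TGAATCA at 88182935 to 88182941, at the edge of the unstimulated peak and outside the peaks of the stimulated cells. Its middle base differs from that of the usual AP-1 word. A TGANTCA word was present in 29.5%, 36.0% and 37.3% of standard peaks, and in 50%, 43.0% and 60.2% of those overlapped by a KOIN peak. Within 100 bp of the centre the Ifnb1 peak held no TGANTCA in any condition, whereas 11.5%, 19.1% and 19.7% of standard peaks did. Among standard peaks overlapped by a KOIN peak these shares were 28.6%, 24.7% and 42.8%. Mismatches to the usual AP-1 word (TGACTCA) and to the CRE word were counted after the sequence had been seen. Within 100 bp of the centre, the stretch closest to the usual AP-1 word had 1 mismatch in each condition, and 39.3%, 47.7% and 49.3% of peaks had as few or fewer. The stretch closest to the CRE word had 3 mismatches, and 84.1%, 87.5% and 87.7% of peaks came at least as close. The CRE, composite, PU.1 and NF-κB words had no match in the site, which says only that these letters are not in this window. The GC content of the peaks was 48.1%, 47.5% and 46.9%, against medians of 44.5%, 45.2% and 44.9%.

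No list held a peak at the Ifnb1 promoter. The RefSeq promoter of Ifnb1 (GRCm38.p6, 250 bases before to 50 after the start) matched only the NF-κB word among those searched. That word is held by 50.8% of 32851 promoters. For the other words this says only that these exact letters are not there, and not that their factors have no site in the promoter. Within 500 kb of the Ifnb1 start site the annotation places 58 genes, of which 37 are protein-coding. Of these, 15 carry a type I interferon (Ifn) symbol, Ifnb1 included. Genes with Gm symbols, such as Gm12597 at 35.5 kb from the Ifnb1 start, were not counted as interferon genes. The number 15 may therefore be too low. The other 14 with an Ifn symbol lie at higher coordinates, beyond the site as seen from Ifnb1. The nearest of them is 49.0 kb and the farthest 357 kb from its start. This family of interferon alpha, epsilon and related genes carried 1 standard peak in the window, near Ifne, which encodes interferon epsilon. That peak was called with HDL + CpG (88513239 to 88513712, 345 kb from the Ifnb1 start), with 6.06 WT and 3.79 KO tags, and had no KOIN peak.

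On the opposite side, a pair of peaks lay inside BC057079. With HDL, a standard and a KOIN peak on a long terminal repeat in its intron 11, at -308.7 kb from the Ifnb1 start, held 13.7 WT against 5.45 KO tags (WT/KO 2.52, 1.61 to 3.96). With HDL + CpG, a standard peak on a LINE-1 element in intron 35 had 6.87 WT and 5.26 KO tags. In unstimulated cells the Ifnb1 site carried the only peaks of the window. It was also the only place of the window with peaks in more than 1 condition.

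**Figure D4:**
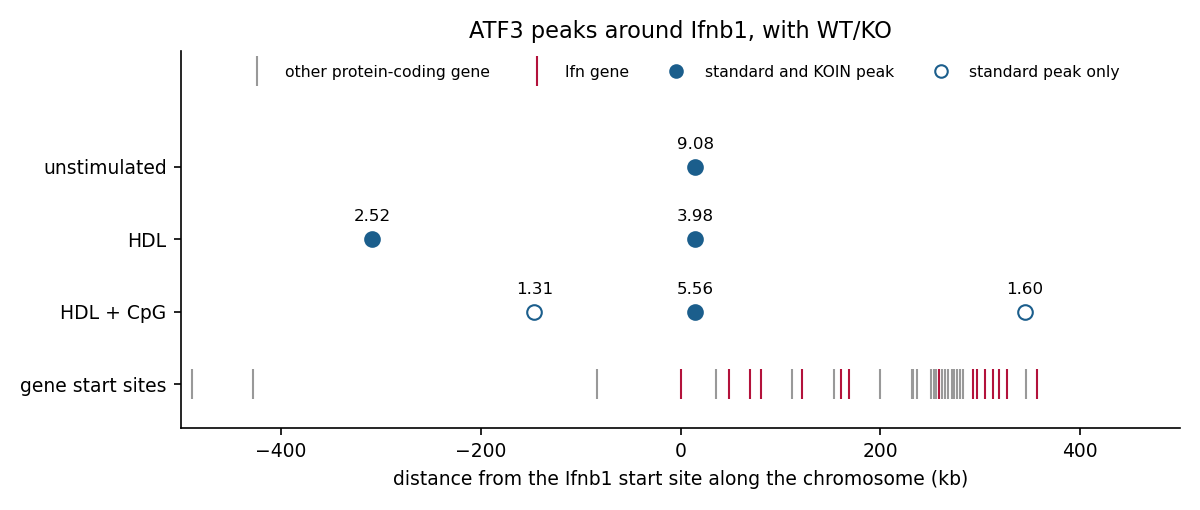
ATF3 peaks by distance from the Ifnb1 start site (kb) in each condition, with their WT/KO ratio, above the start sites of protein-coding genes. Filled circles are peaks in the standard and KOIN lists, open circles standard peaks only, and the Ifnb1 site has ratios of 9.08, 3.98 and 5.56 where the other peaks have 2.52, 1.31 and 1.60.

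The 5 sites whose tags over the 6 libraries were nearest to those of Ifnb1 were sought among 1529 other sites with a standard peak in all 3 conditions. Distance was Euclidean on log2(tags + 1), with a median of 2.95 over all sites. In order they were near Zfp608 (0.757), Jarid2 (0.801), Gm4832 (0.959), Cx3cr1 (1.04) and Gm14005 (1.06), with a Pearson r over the 6 libraries of 0.972, 0.969, 0.949, 0.939 and 0.983. The libraries that enter r are 3 WT and 3 KO, so a WT/KO difference alone gives a high r. Each of the 5 sites had a KOIN peak in all 3 conditions. At Zfp608, a zinc finger gene, the site lay at -419.3 kb from the TSS and held 13.5, 21.4 and 17.2 WT tags and 3.44, 6.66 and 2.74 KO tags unstimulated, with HDL and with HDL + CpG. At Jarid2, which encodes a partner of the Polycomb repressive complex, it held 11.8, 20.8 and 12.3 WT and 1.85, 5.75 and 4.21 KO tags. At Cx3cr1, the fractalkine receptor of monocytes and microglia, the peak was annotated to the 3′ UTR and held 9.96, 17.7 and 16.4 WT and 1.85, 4.84 and 5.05 KO tags. All 5 had fewer WT tags than Ifnb1 in unstimulated cells and, as at Ifnb1, more KO tags with HDL than in unstimulated cells, a likeness that the choice by distance favours.

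**Figure D5:**
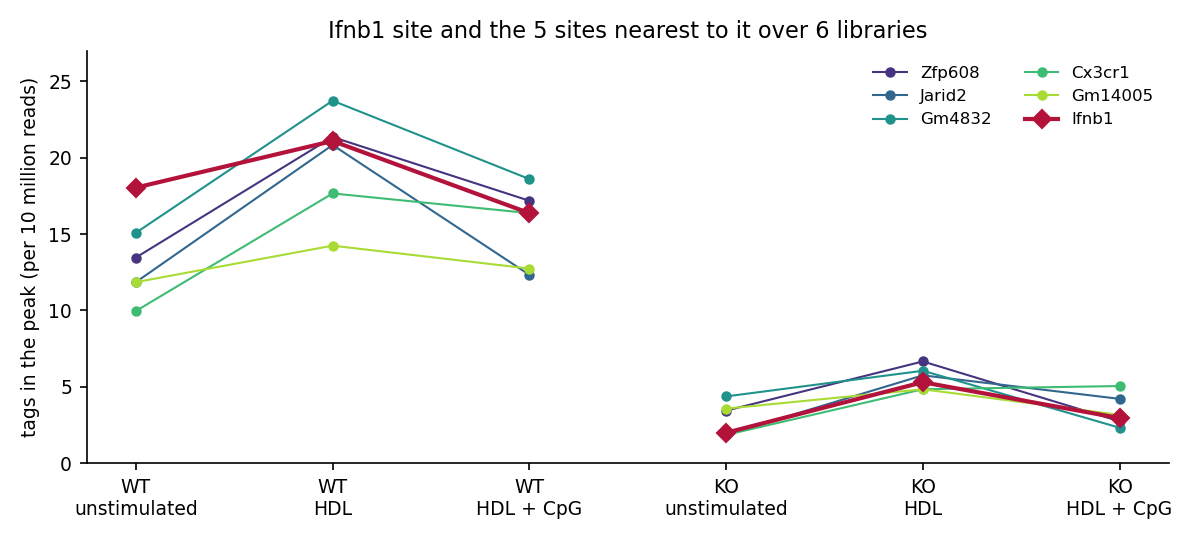
Tags (per 10000000 reads) in each library at the Ifnb1 site (red diamonds) and at the 5 sites nearest to it by distance over the 6 libraries. The unstimulated WT value of Ifnb1 (18.04 tags) lies above the other 5 (9.96 to 15.1 tags).

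Lists of genes before and after Ifnb1 in its pathway, and of interferon genes and chromosome neighbours, were read. They were chosen with earlier results of these data known. Of 119 genes in these lists, 16 had a standard peak and 6 a KOIN peak in unstimulated cells, 37 and 24 with HDL, and 27 and 14 with HDL + CpG. Over all genes with a standard peak, 24.9%, 63.0% and 34.9% also had a KOIN peak. Among 31 sensors and adaptors upstream of Ifnb1, 0 of 2 genes with a standard peak had a KOIN peak in unstimulated cells, against 8 of 12 after HDL and 8 of 10 after HDL + CpG. Ikbke, a kinase that activates IRFs, carried a KOIN peak in intron 2 with HDL (13.97 WT and 3.33 KO tags), and with HDL + CpG a standard peak only (8.89 and 3.37 tags). Dhx58, an RNA helicase of the RIG-I family, had 11.6 WT and 2.12 KO tags with HDL. Ticam1, the adaptor TRIF, had a KOIN peak at its promoter with HDL + CpG (10.7 and 4.00 tags).

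Of 22 factors known at Ifnb1, a KOIN peak was found for 1 of 5 genes with a standard peak unstimulated, 7 of 10 after HDL and 5 of 6 after HDL + CpG. Atf3 was among them in each condition. Its highest-scoring KOIN peak lay at -18.02 kb from the TSS in unstimulated cells (10.5 WT and 4.90 KO tags). With HDL it lay at -47.33 kb (19.2 and 6.05 tags), and with HDL + CpG at -47.45 kb (17.6 and 5.47 tags). Prdm1, a repressor known at Ifnb1, had 17.99 WT and 3.37 KO tags with HDL + CpG at an intergenic KOIN peak, -167.1 kb from its TSS. Irf8 carried a KOIN peak at -27.01 kb with HDL (10.3 and 3.03 tags).

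Of 27 interferon genes and neighbours, KOIN peaks were found for 3 of 4, 1 of 3 and 0 of 4 genes with a standard peak. These were Mtap, Cdkn2b and Ifnk in unstimulated cells and Dmrta1 with HDL, so that the Ifnb1 site was the one type I interferon site of the cluster kept in any condition, Ifnk being elsewhere on chromosome 4. Of 14 genes of interferon receptor signalling, the counts were 2 of 3, 5 of 6 and 0 of 3. Socs1, an inhibitor of JAK kinases, had 21.9 WT and 3.94 KO tags with HDL at a KOIN peak 30.8 kb from the TSS, and 11.9 and 6.74 tags at a standard peak there with HDL + CpG. Of 25 interferon-stimulated genes, the counts were 0 of 2, 3 of 6 and 1 of 4. Gbp3, a guanylate-binding protein, held 8.44 WT against 0.76 KO tags (32 and 5 reads) with HDL, so that WT/KO was 11.1 (4.31 to 36.6). Oasl1, which encodes a repressor of IRF7 translation, carried a standard peak at or near its promoter in all 3 conditions with no KOIN peak, and its WT/KO was 1.16, 1.02 and 1.01. These are counts over nearest genes, with no test.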

How the data were processed

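ATF3 ChIP-seq peak lists of BMDMs were analysed as deposited, a standard and a KOIN list for each of 3 conditions. Samples were grouped by genotype and treatment from the labels. The authors concatenated replicates, aligned reads to mm9 with Bowtie, keeping the best position of multi-mapping reads, called peaks with MACS and annotated them by the nearest RefSeq start site with HOMER. The submitters' processing notes name CASAVA 1.8, Bowtie 0.12.8, HOMER 4.3 and MACS 1.4.2. Standard peaks were called by the authors on the WT library, KOIN peaks on WT against KO with those under 2-fold left out. The signal in the deposited lists is tags per peak, scaled by the authors to 10000000 reads, and the score is the one MACS gave the authors. All tags came out within 0.005 tags of whole reads, so reads were computed back from the totals that the headers give. At 37137377 to 75534584 reads a library, 1 read is worth 0.132 to 0.269 tags. A list of barcodes was not used here.

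Members and gene lists were chosen with earlier results of these data known. Ratios and intervals were computed from the reads, with exact Poisson or conditional binomial (Clopper-Pearson) 95% intervals, checked on simulated data. Peaks overlapping by at least 1 bp formed a site, and where several peaks of a list fell in a site, the one with most WT tags was used. Sequences were read from NCBIM37, the assembly of mm9, within whose chromosomes all 16759 peaks lie, and the Ifnb1 start site of the lists differed by 0 bp from its annotation. Promoters were RefSeq's. Shares of peaks with a word are over windows of the length of the Ifnb1 peak around each peak centre. Named were all Ifnb1 peaks, all peaks within 500 kb of its start, the 5 sites nearest in tags, and up to 4 KOIN and 2 other genes per list and condition by score, of which examples are given. Alternatives were other overlaps, distance limits, score minimums, scalings, pseudocounts, ranks and windows, as well as the C/EBP word and the mismatch counts, which were added after seeing the data. Scripts ran in Python 3.11.15 (pandas 2.3.3, numpy 2.4.6, scipy 1.17.1, matplotlib 3.10.9).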

Additional observations from a re-analysis of the deposited data

How the results depend on the processing

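WT exceeded KO at the Ifnb1 site in each condition under every alternative scaling and pseudocount tried. Since the KOIN peaks were selected on this contrast, that outcome was favoured by the choice and supports nothing further. Scaled so that the median standard peak without a KOIN peak had a WT/KO of 1, the ratio with HDL was 2.34, below its counting interval, and those of unstimulated and HDL + CpG cells were 6.08 and 4.96. The 6 peaks numbered 0 within 10 kb of the start site and 3 at a score of at least 100. The percent of peaks with fewer WT tags became 75.9 unstimulated and 89.6 with HDL by tags per kb. By score in place of tags it became 92.9 with HDL and 81.5 with HDL + CpG, and without satellites and simple repeats 87.3 with HDL. The cause of these shifts was not tested. Another 33 alternative values stayed within their intervals or counts, among them the between-condition ratios per kb and rescaled. Of the 5 nearest sites, 3 were found again by tags per kb and 4 with a pseudocount of 0.1. Of the counts of listed genes, 23 moved by over 1.5 times when peaks were limited to 10 kb of a start site. Leaving out a replicate was not possible because each group is 1 pooled library. No paired analysis was possible because each group has 1 library. Read numbers of 14 to 35 in the KO libraries limit the precision of the ratios.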
